A study of Mus musculus with 2 samples.

Results

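The genes described here encode the respiratory chain of mitochondria. They were chosen by symbol: the genes encoded in mitochondrial DNA, whose symbols start with mt-, and the nuclear genes whose symbols belong to the families Nduf, Sdh, Uqcr, Cox4 to Cox8 and Atp5. Of the 32285 features in the files, 107 met the rule, 13 of them mitochondrial and 94 nuclear. The nuclear genes comprised 84 subunits (37 of complex I, 4 of complex II, 8 of complex III, 18 of complex IV and 17 of complex V) and 10 genes of the same name families that are not subunits, mostly assembly factors. The rule used no measured value.

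Muscle stem cells, called satellite cells (SCs), were sorted from the tibialis anterior (TA) muscle of 8-week-old mice of the genotype Pax7 CreERT2/+ ;Rosa26 mTmG/+, in which a Cre recombinase driven by the Pax7 gene switches a membrane reporter from red to green in SCs. The quiescent SC (QSC) library came from uninjured TA muscle and the activated SC (ASC) library from TA muscle injured 1.5 days earlier by cardiotoxin, which destroys muscle fibres. Each library pooled cells of several mice and with 1 library per group the group cannot be told apart from the library, no difference below has a replicate check, and no test was made. All intervals are 95% intervals that cover counting error only.

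Oxidative phosphorylation is carried out by complexes that pass electrons from NADH (complex I) or succinate (complex II) through complex III and cytochrome c to oxygen at complex IV (cytochrome c oxidase), and by the ATP synthase, also called complex V. Complexes I, III, IV and V are built from subunits of both genomes, while complex II is encoded wholly in the nucleus. The mitochondrial subunits are transcribed and translated inside the organelle, whereas the nuclear subunits are made in the cytosol and imported. Muscle fibres are rich in mitochondria and use fibre forms of several complex IV subunits, and quiescent SCs are small cells known for few mitochondria.

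Of these fibre forms, Cox6a2 and Cox8b pair with the widely expressed Cox6a1 and Cox8a, and Cox7a1 pairs with Cox7a2. Promoters are shown because Cox6a2 and Cox6a1, and likewise Cox8b and Cox8a, took opposite sides between cell classes below, whereas Cox7a1 and Cox7a2 stood on the same side. They are RefSeq sequences on GRCm38.p6, from 250 bases before to 50 bases after the start of the transcript and read along the gene's strand. Cox6a1 lies at chr5:115348909-115349208 on the minus strand, Cox8a at chr19:7217567-7217866 on the minus strand, and Cox8b at chr7:140900397-140900696 on the minus strand. Capitals mark matches to the letters GCGCA and GCGC with any 1 base between them (the motif of NRF1, a regulator of respiratory genes), CCGGAAG (the core of ETS factors), AAGATGGC (YY1), CAGCTG (an E-box) and TATAAA (the TATA box), searched on both strands.
Cox6a1: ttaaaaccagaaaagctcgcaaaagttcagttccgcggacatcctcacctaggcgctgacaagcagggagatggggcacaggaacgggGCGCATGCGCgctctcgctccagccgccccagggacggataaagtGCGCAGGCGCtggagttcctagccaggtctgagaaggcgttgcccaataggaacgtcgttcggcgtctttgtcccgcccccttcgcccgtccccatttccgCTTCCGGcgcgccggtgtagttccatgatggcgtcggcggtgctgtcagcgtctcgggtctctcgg
Cox8a: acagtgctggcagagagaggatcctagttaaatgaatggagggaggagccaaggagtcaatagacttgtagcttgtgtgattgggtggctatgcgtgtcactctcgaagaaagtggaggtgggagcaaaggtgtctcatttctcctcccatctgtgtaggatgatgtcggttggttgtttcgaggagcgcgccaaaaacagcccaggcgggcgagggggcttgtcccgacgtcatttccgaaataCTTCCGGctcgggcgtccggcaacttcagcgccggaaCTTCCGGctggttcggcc
Cox8b: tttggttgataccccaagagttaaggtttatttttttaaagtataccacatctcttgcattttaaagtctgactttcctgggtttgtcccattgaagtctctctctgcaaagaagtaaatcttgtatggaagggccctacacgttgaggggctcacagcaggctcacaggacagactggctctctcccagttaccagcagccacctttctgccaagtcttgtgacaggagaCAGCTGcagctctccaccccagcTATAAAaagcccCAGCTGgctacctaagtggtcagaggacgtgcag
The promoter of Cox6a1 held NRF1 and ETS letters, that of Cox8a ETS letters, and that of Cox8b E-box and TATA letters. Those of Cox7a1 and Cox7a2 held none of the 5 motifs. Cox6a2 had no promoter entry, so of the pairs on opposite sides only Cox8b and Cox8a can be set side by side. Over the 75 nuclear members with a promoter entry, NRF1 letters were in 24.0% against 4.78% of all 27025 promoters, ETS letters in 24.0% against 9.12%, YY1 letters in 12% against 2.88%, E-box letters in 8.00% against 16.1%, and TATA letters in 10.7% against 14.2%. A match describes the letters only, and no binding was measured.

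The files gave counts of unique molecular identifiers (UMIs), each standing for 1 captured transcript end, so values of different genes were not scaled by length. Barcodes with at least 500 detected genes were kept, 520 of 766 in the QSC library against 1487 of 1650 in the ASC library. They were sorted into classes without use of the 107 genes. Contractile-high barcodes took at least 5% of their UMIs from 10 muscle genes, called contractile genes below. Most are of the contractile apparatus, such as Acta1 and Myh4, but Ckm (a creatine kinase) and Atp2a1 (a calcium pump) are among them. The other barcodes were called non-muscle where their cluster carried macrophage/monocyte, neutrophil or fibroblast markers, and contractile-low muscle otherwise. The contractile-low class held 382 QSC barcodes (median 2218 UMIs) and 424 ASC barcodes (median 7924 UMIs), the contractile-high class 105 and 960 (medians 1635 and 2667 UMIs), and the non-muscle class 33 and 103. The classes are ranges of a score, and 8 QSC and 128 ASC barcodes lay near the limit, between 3% and 8% contractile UMIs. The contractile-low QSC barcodes fell mainly into cluster 0, a quiescent-like cluster with Pax7 at 212 counts per 1000000 UMIs (CPM) over the class, and the ASC barcodes into cluster 3, which stayed unnamed and was led by Aqp1 and Fabp4, and cluster 5, an activated-like cluster led by Rrm2. Myod1 stood at 146 CPM in the contractile-low QSC class and 417 CPM in the ASC class. The contractile-high barcodes fell into cluster 7 in the QSC library against clusters 1, 2, 4 and 6 in the ASC library. Cluster 4 was led by haemoglobin genes, each detected in a share of at most 0.107 of its barcodes. The erythroid marker list took only 0.0099% of the UMIs of its contractile-high barcodes. Pax7 stood at 9.26 CPM in the QSC and 2.26 CPM in the ASC library in the contractile-high class, and at 29.8 CPM in the contractile-low ASC class. Myod1 and Myog stood at 168 and 147 CPM in the contractile-high ASC class. By Pax7 the contractile-high barcodes go against the label of muscle stem cells, and they are called by their contractile share. The libraries shared 4 barcode sequences.

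Mitochondrial and nuclear transcripts of the respiratory chain were apportioned in opposite ways between the classes. The 13 mitochondrial genes took 4.96% of the UMIs of the contractile-low QSC class (interval 4.92 to 5.01) and 2.18% of the ASC class (2.17 to 2.19). In the contractile-high class they took only 0.862% in the QSC library (0.823 to 0.901) against 0.451% in the ASC library (0.444 to 0.459). The 94 nuclear genes took 3.002% of the UMIs of the contractile-low QSC class (2.97 to 3.04) and 3.94% of the ASC class (3.92 to 3.95). In the contractile-high class they took 13.4% in the QSC library (13.3 to 13.6) against 8.27% in the ASC library (8.24 to 8.30). The mitochondrial share was thus lower in the ASC library in both classes, while the nuclear share was higher in the contractile-low class and lower in the contractile-high class.

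**Figure D1:**
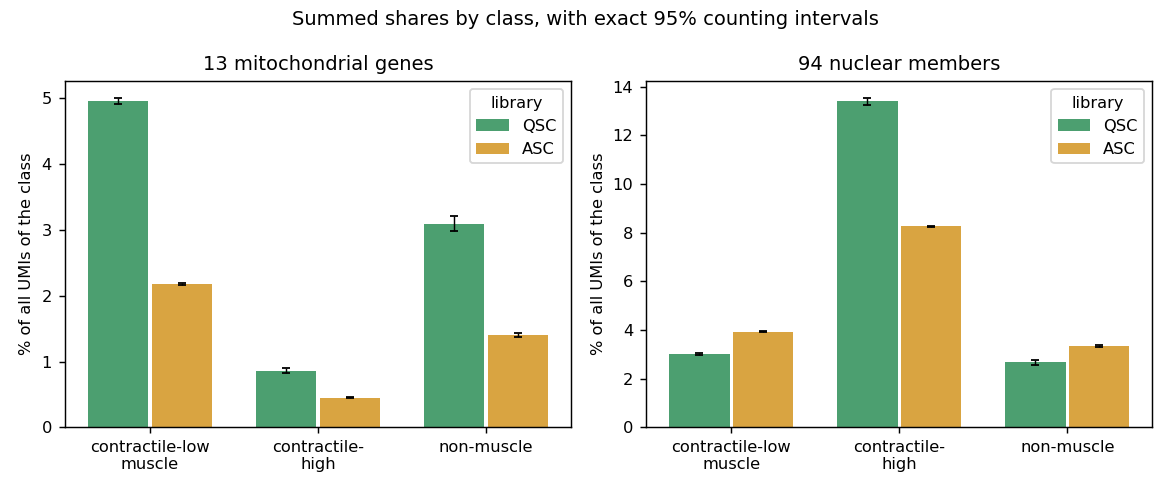
Percent of all UMIs taken by the 13 mitochondrial genes (left) and the 94 nuclear genes (right) in each class, with the QSC library in green and the ASC library in ochre. Bars are sums over the barcodes of a class and error bars are exact 95% counting intervals. The contractile-high class is lowest on the left and highest on the right, and the ASC bar exceeds the QSC bar only for nuclear genes in the contractile-low and non-muscle classes.

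Single barcodes spread widely in the ASC library. In the contractile-high class the median mitochondrial share per barcode was 0.720% in QSC and 0.178% in ASC, where the 90th percentile was 0.746%, so the ASC sum lay well above its median. The median nuclear shares were 13.7% and 7.55%. In the contractile-low class the median mitochondrial shares were 4.88% and 2.36% and the median nuclear shares 2.94% and 3.65%.

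Expressed as a ratio, the contractile-low QSC class held 1.65 mitochondrial UMIs per nuclear UMI (1.63 to 1.68) and the ASC class 0.554 (0.550 to 0.558). These ratios became 2.73 and 0.732 after subtraction of the contractile-high profile of the same library. In the QSC library that subtraction removed more UMIs of the fibre forms than the class held. The contractile-high class held 0.0642 in the QSC library (0.0612 to 0.0673) against 0.0546 in the ASC library (0.0537 to 0.0555). Among single barcodes, mitochondrial UMIs outnumbered nuclear ones in 365 of 382 contractile-low QSC barcodes but in 76 of 424 ASC barcodes, and in 0 of 105 and 8 of 960 contractile-high barcodes. The exact upper bound for 0 of 105 is 3.45%. After every barcode was thinned to 1000 UMIs, which left out 8 QSC and 3 ASC barcodes of the contractile-low class, these counts were 344 of 374 and 96 of 421. Of the contractile-low class, 3 QSC and 13 ASC barcodes were above 10% mitochondrial UMIs, and 1 and 40 were below 1%. Of the contractile-high class, 85 of 105 QSC and 879 of 960 ASC barcodes were below 1%.

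**Figure D2:**
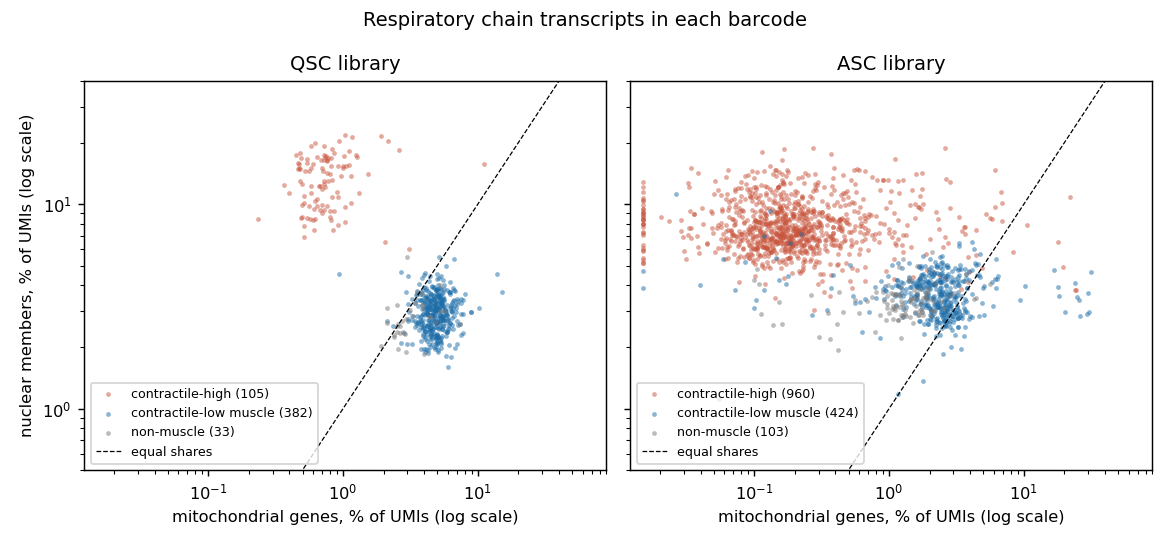
Each point is 1 kept barcode, with the percent of its UMIs from mitochondrial genes (x axis, log scale) and from nuclear members (y axis, log scale), the QSC library on the left and the ASC library on the right, colored by class. The 35 ASC barcodes without a mitochondrial UMI are drawn at the left edge. On the dashed line both shares are equal, and 365 of the 382 contractile-low QSC barcodes lie to its right.

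The non-muscle barcodes, which carry markers of other cell types, gave the same measures for other cells of the same droplet runs. Their mitochondrial share was 3.09% in the QSC library (2.98 to 3.21) against 1.40% in the ASC library (1.37 to 1.43), and their nuclear share 2.67% (2.57 to 2.78) and 3.35% (3.31 to 3.40). The macrophage/monocyte-like barcodes alone held 3.81% and 1.46% mitochondrial UMIs and 2.85% and 3.37% nuclear UMIs. The ASC library was therefore lower in mitochondrial and higher in nuclear share than the QSC library in these cells too, as in the contractile-low class. The makeup of this class differed between libraries, with 17 of the 33 QSC barcodes but 1 of the 103 ASC barcodes fibroblast-like. The neutrophil-like ASC barcodes held 0.509% mitochondrial and 2.79% nuclear UMIs.

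Transcripts that stay in the nucleus were, like the mitochondrial share, lower in the ASC library in all 3 classes. The list of 5 nuclear-retained RNAs, mostly Malat1, took 6.80% of contractile-low QSC UMIs and 0.751% of ASC UMIs, 0.231% and 0.0737% in the contractile-high class, and 4.93% and 1.02% in the non-muscle class. Within the ASC library, however, the non-muscle class held more of this list than the contractile-low class but a lower mitochondrial share (1.40% against 2.18%). Over single barcodes the Spearman correlation of the 2 shares was 0.0938 in contractile-low QSC and 0.440 in ASC barcodes. It was 0.216 and 0.104 in the contractile-high class, and 0.152 and 0.122 in the non-muscle class. The part of this list in the mitochondrial differences was not tested. The contractile genes themselves took 1.78% and 1.94% of the contractile-low UMIs and 2.15% and 2.51% of the macrophage/monocyte-like UMIs, cells that should lack them. Subtracting the contractile-high profile of the same library until no contractile UMI was left changed the nuclear share of the contractile-low class to 1.965% in the QSC library against 3.32% in the ASC library. In the QSC library this profile held 20.1 Cox6a2 UMIs per 1000 contractile UMIs, but the contractile-low class only 12.8. The subtraction therefore removed more Cox6a2 than the class held, and likewise Cox8b and Cox7a1, so the corrected QSC values rest on a profile that does not match. Over the barcodes of both muscle classes, the median share of the macrophage/monocyte list was at most 0.0137%, and that of the neutrophil, endothelial and erythroid lists was 0. In the sums of the contractile-low class, however, the erythroid list stood at 130 CPM in QSC and 1689 CPM in ASC. The smooth muscle or pericyte list stood at 618 and 1261 CPM there, with medians per barcode of 0.0300% and 0.0534%. The fibroblast list had a median of 0.370% in contractile-low QSC barcodes and 0.0861% in ASC barcodes. The part of these lists in the differences was not tested.

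The ASC library was compared with the QSC library first in the contractile-low class, ASC over QSC. Of its 424 ASC barcodes, 203 lay in the unnamed cluster 3, 150 in the activated-like cluster 5 and 51 in the unnamed cluster 9. Cluster 5 was thus only part of the class, although 8 markers of the activated list were also detected in cluster 9. Of the 13 mitochondrial genes, 11 were lower in the ASC library and 7 of them at least 2-fold, beside 23.2% of all 9999 tested genes that were at least 2-fold lower. Their sum was 2.28-fold lower (log2 ratio -1.19, -1.20 to -1.17), and their median log2 ratio was -1.25 beside -0.09 for all genes tested. mt-Co3, a core subunit of complex IV and the mitochondrial transcript with the highest level in this class of the QSC library, went from 14625 to 4058 CPM (log2 -1.85). mt-Cytb, the mitochondrial subunit of complex III, went from 8188 to 2925 CPM (log2 -1.48), and mt-Co1, the catalytic subunit of complex IV, from 7444 to 2620 CPM (log2 -1.51). mt-Atp6, a subunit of the proton channel of complex V, went from 8615 to 5289 CPM (log2 -0.70). The complex I subunits mt-Nd1 and mt-Nd4 went from 4493 to 2837 CPM and from 2718 to 1444 CPM. The exceptions were mt-Nd2, at 630 CPM in the QSC and 731 CPM in the ASC library (log2 0.21, 0.08 to 0.35), and mt-Nd3, at 120 and 197 CPM (log2 0.72, 0.42 to 1.02), both subunits of complex I.

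The lowest log2 ratio of the mitochondrial genes was that of mt-Atp8, the other mitochondrial subunit of complex V, which went from 391 to 52.2 CPM (-2.90, -3.14 to -2.67). Its gene overlaps the start of mt-Atp6 on the same strand over 43 bases, chrM:7927-7969 in GENCODE M21 on GRCm38. The stretch is shown here because it belongs to both genes. Capitals mark the first codon of mt-Atp6 and the stop codon of mt-Atp8, which lie in different reading frames.
mt-Atp8 and mt-Atp6 overlap: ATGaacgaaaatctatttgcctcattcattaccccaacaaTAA
Reads from this stretch cannot be assigned to 1 of the genes. Counts of such overlapping genes are not read as levels of separate transcripts. The mt-Nd4l gene, which overlaps mt-Nd4 by 7 bases, showed the next lowest ratio (189 to 43.1 CPM, log2 -2.13). mt-Nd5 went from 306 to 128 CPM (log2 -1.25), mt-Nd6, the only mitochondrial gene here on the other strand, from 41.5 to 13.7 CPM (log2 -1.60), and mt-Co2 from 1868 to 1454 CPM (log2 -0.36).

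The nuclear members showed small differences in the other direction. Of 90 tested in the contractile-low class, 76 were higher in the ASC library, 63 with an interval above 0, and 6 had an interval below 0. Here and below, counts of intervals are given without the share over all tested genes. They are not read as particular to the genes counted. Only 5 were at least 2-fold higher, beside 18.1% of all tested genes, and 1 was at least 2-fold lower, so neither share stood above that of all genes. Their sum was 1.31-fold higher (1.29 to 1.33) and their median log2 ratio was 0.38. The highest ratios were those of Ndufaf4 (25.4 to 92.0 CPM, log2 1.86) and Ndufaf2 (26.5 to 74.9 CPM, log2 1.50), both assembly factors of complex I, and of Cox5a, a subunit of complex IV (264 to 701 CPM, log2 1.41, 1.22 to 1.61). They were followed by Ndufaf6, another assembly factor (11.5 to 26.4 CPM, log2 1.20), and Atp5g2, 1 of the 3 genes for the c ring of complex V (368 to 785 CPM, log2 1.09). The lowest were Cox6b2, the testis form of a complex IV subunit (23.1 to 9.499 CPM, log2 -1.28), and Sdha, the flavoprotein of complex II (213 to 135 CPM, log2 -0.66). Ndufaf3, an assembly factor, stood at -0.53 with an interval that held 0 (-1.13 to 0.12), and the complex I subunits Ndufa1 and Ndufa6 at -0.43 and -0.41.

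By complex, the sum of nuclear subunits was higher in ASC, with a log2 ratio of 0.24 for complex I (0.21 to 0.28), 0.40 for complex III (0.35 to 0.46), 0.46 for complex IV (0.42 to 0.50) and 0.49 for complex V (0.45 to 0.52). For complex II it was 0.06 with an interval that held 0 (-0.07 to 0.20), with Sdhb, the iron-sulfur subunit, at 0.35, the membrane anchors Sdhc and Sdhd at 0.19 and 0.44, and Sdha lower. The subunits with the most UMIs in each complex were Ndufa2 (424 to 589 CPM), Uqcrq (464 to 858 CPM), Cox7c (675 to 1208 CPM) and Atp5e (718 to 1026 CPM). All 4 were higher in the ASC library, with log2 ratios from 0.47 for Ndufa2 to 0.89 for Uqcrq. Cytosolic ribosomal proteins, a list for comparison, had a median of 0.60. Clusters 0 and 5 alone gave a log2 ratio of -1.39 for the mitochondrial and 0.41 for the nuclear sum. This restriction left out cluster 3, led by Aqp1 and by the endothelial marker Fabp4. Fabp4 was detected in a share of only 0.0942 of the barcodes of cluster 3. Cluster 9, with 2.92% mitochondrial UMIs in its 51 contractile-low ASC barcodes, was left out too. The effect of leaving out cluster 3 by itself was not tested.

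The balance of mitochondrial to nuclear subunit transcripts differed between complexes. In the contractile-low QSC class there were 3.26 mitochondrial UMIs per nuclear UMI in complex IV (3.17 to 3.35), 2.41 in complex III (2.31 to 2.52), 0.996 in complex V (0.966 to 1.03) and 0.940 in complex I (0.910 to 0.970). In the ASC class these were 0.807, 0.652, 0.422 and 0.504. Complex IV had the highest ratio in every class of both libraries. In the contractile-high class the ratios were 0.132, 0.0759, 0.0344 and 0.0376 in the QSC library against 0.0819, 0.0586, 0.0368 and 0.0529 in the ASC library.

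In the contractile-high class the nuclear members were lower in the ASC library. Of 89 tested, 84 were lower, 75 with an interval below 0, and 0 had an interval above 0, again without the share over all tested genes. At least 2-fold lower were 10 of them, beside 10.4% of all 6539 tested genes, and 0 were at least 2-fold higher, beside 18.7%. Their sum was 1.62-fold lower (log2 -0.70, -0.72 to -0.68), with a median of -0.63 beside 0.09 for all genes tested. Complex I, III, IV and V sums lay between -0.75 and -0.68, and complex II at -0.63 (-0.77 to -0.49). Atp5g3, a c ring gene, went from 806 to 325 CPM (log2 -1.31, -1.54 to -1.07), Sdhd from 403 to 197 CPM (log2 -1.03) and Cox7a1 from 2866 to 1413 CPM (log2 -1.02). Uqcrq went from 3171 to 1895 CPM and Cox7c from 4111 to 2427 CPM. Of the mitochondrial genes, 9 of 12 tested were lower and 5 at least 2-fold, and the sum was 1.91-fold lower (log2 -0.93, -1.003 to -0.86). As in the contractile-low class, mt-Co3 was lower (3282 to 1043 CPM, log2 -1.65) and mt-Nd2 higher (102 to 177 CPM, log2 0.79, 0.18 to 1.48). The log2 ratio of mitochondrial to nuclear UMIs, ASC over QSC, was -0.23 from the sums and depended on the barcodes included. It was -0.36 with at most 10% and -1.11 with at most 1% mitochondrial UMIs per barcode, and -0.91 in clusters 7 and 1 alone, where the mitochondrial sum stood at -1.59.

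Together, 55 nuclear members had an interval above 0 in the contractile-low class and below 0 in the contractile-high class, and 0 had the opposite pattern. The same count was not made over all tested genes, so the pattern is not read as particular to the members. The difference between the classes was not tested. The contractile-high QSC barcodes took 19.6% of their UMIs from the contractile genes and the ASC barcodes 15.5%, and ribosomal proteins stood the other way, with a median log2 ratio of 0.77.

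The contractile-high and contractile-low classes were then compared within each library. In the QSC library the contractile-high class held 4.47-fold more nuclear UMIs per total than the contractile-low class (4.39 to 4.54) and 5.76-fold fewer mitochondrial UMIs. At least 2-fold higher were 78 of 90 nuclear members beside 18.8% of all 5407 tested genes, and 2 were at least 2-fold lower beside 47.3%. All 13 mitochondrial genes were at least 2-fold lower. mt-Nd6 was at 0 UMIs in the contractile-high class. With a floor of 3 counts in place of 0 it was 2.99-fold lower, which is not a bound. Its log2 interval had no lower end and an upper end of -1.21. In the ASC library the nuclear sum was 2.10-fold higher (2.09 to 2.11) and the mitochondrial sum 4.83-fold lower. At least 2-fold higher were 48 of 90 nuclear members beside 15.8% of 10274 tested genes, and 3 were at least 2-fold lower beside 44.6%. Medians over nuclear members were 2.06 and 1.05 in the 2 libraries, beside -0.90 and -0.74 over all genes tested. In the ASC library all 13 mitochondrial genes were again at least 2-fold lower. TMM scaling, which sets the bulk of genes equal, adds 0.45 and 0.56 to these log2 ratios and turns neither sum, but brings the nuclear members past 2-fold in the ASC library from 51 to 77. With the contractile limit at 2%, the mitochondrial log2 ratios of the classes shrank to -0.75 in the QSC and -0.73 in the ASC library, and the nuclear ratios to 1.37 and 0.71. The mitochondrial ratios of ASC over QSC were then larger in size, at -1.29 in the contractile-low and -1.27 in the contractile-high class. For ASC over QSC, TMM scaling adds 0.12 in the contractile-low class and -0.11 in the contractile-high class.

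Complex IV held both ends of this comparison. The highest ratios in the ASC library were those of the fibre forms Cox8b (260 CPM in the contractile-low and 2150 CPM in the contractile-high class, log2 3.05), Cox7a1 (173 and 1413 CPM, log2 3.03) and Cox6a2 (369 and 2970 CPM, log2 3.01). The lowest were those of the partners Cox6a1 (505 and 79.9 CPM, log2 -2.66, -2.85 to -2.47) and Cox8a (1231 and 302 CPM, log2 -2.03, -2.13 to -1.93), followed by Cox6b2 (9.499 and 2.58 CPM, log2 -1.88). The QSC library gave the same sides, with Cox8b at 221 and 4199 CPM, Cox7a1 at 172 and 2866 CPM, Cox6a2 at 228 and 3949 CPM, Cox6a1 at 506 and 55.6 CPM, and Cox8a at 902 and 287 CPM. Cox7a2, in contrast, was higher in contractile-high barcodes of both libraries (421 and 1023 CPM in QSC, 599 and 855 CPM in ASC). Cox6b1, the main form beside Cox6b2, and Ndufa4, a subunit of complex IV despite its name, were also higher there (log2 0.82 and 1.31 in the ASC library). Cox4i1, the main form of its subunit, was little higher in the ASC library (1445 and 1739 CPM, log2 0.27).

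Among the other named genes of the ASC library, Ndufaf5, an assembly factor of complex I (19.9 and 126 CPM, log2 2.66), and Ndufc1, a subunit of complex I (405 and 1392 CPM, log2 1.78), were higher in contractile-high barcodes, and Ndufaf2 was lower (log2 -0.98). Cox7a2l, an assembly factor of supercomplexes, and Atp5g2 stood at -0.25 and -0.12, and both turn positive under TMM scaling. The 3 genes of the c ring encode the same mature protein. In the contractile-low class Atp5g1 gave 52.8% of their UMIs in the QSC library against 48.9% in the ASC library, and in the contractile-high class 74.2% and 73.2%. Atp5g2 gave 31.4% and 37.9% of them in the contractile-low class and 13% and 18.5% in the contractile-high class, and Atp5g3 gave the rest, 15.8%, 13.1%, 12.8% and 8.33% in the same order.

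As a share of each pair, Cox6a2 gave 98.6% of the UMIs of Cox6a2 and Cox6a1 in contractile-high QSC barcodes (97.6 to 99.3) and 97.4% in ASC barcodes (97.0 to 97.7). Cox8b gave 93.6% (91.9 to 95.1) and 87.7% (86.9 to 88.4) of its pair, and Cox7a1 73.7% (70.6 to 76.6) and 62.3% (61.1 to 63.4). In the contractile-low class Cox6a2 gave 31.1% and 42.2%, Cox8b 19.7% and 17.4%, and Cox7a1 29.0% and 22.4%. These contractile-low shares have to be read beside the free RNA of the droplets. Per 1000 contractile UMIs, Cox6a2 gave 19.0 UMIs in contractile-low, 19.1 in contractile-high and 18.4 in macrophage/monocyte-like ASC barcodes. Cox8b gave 13.4, 13.8 and 13.4, and Cox7a1 gave 8.88, 9.10 and 9.39. The 3 fibre forms thus stood in close to the same ratio to the contractile genes in these barcodes of the ASC library, macrophage/monocyte-like ones included. Their level in contractile-low ASC barcodes is therefore not read as expression, although the class also holds cluster 9, and the source of these transcripts was not tested. In the QSC library the contractile-low values were 12.8 for Cox6a2, 12.4 for Cox8b and 9.65 for Cox7a1, below the contractile-high values of 20.1, 21.4 and 14.6. Without the 3 fibre forms the nuclear subunits gave nearly the same sums, with log2 ratios of 0.39 and -0.70 for ASC over QSC in the contractile-low and contractile-high classes.

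**Figure D3:**
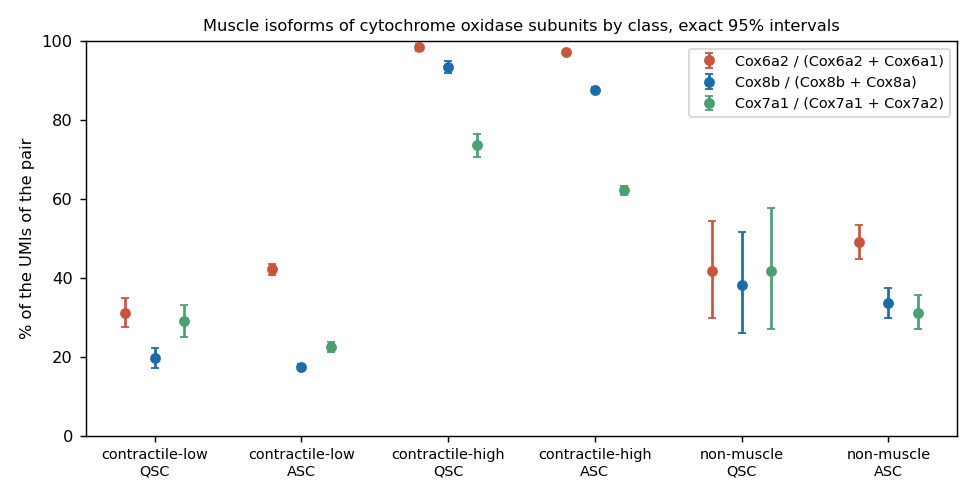
Share of the fibre form in the UMIs of each isoform pair by class and library, with exact 95% intervals. The fibre forms give 62.3% to 98.6% of their pair in contractile-high barcodes and at most 42.2% in contractile-low barcodes.

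Forms known from other tissues were near the limit of detection. Cox4i2, the lung form, had 3 UMIs in the contractile-low QSC class, 0.251% of its pair with Cox4i1 (0.0517 to 0.731), and Cox8c, a testis form, had 0 UMIs in both libraries. Cox6b2 gave 4.01% of its pair in the contractile-low QSC class (2.47 to 6.12) and 1.32% in the ASC class (0.982 to 1.74). Ndufa4l2, a relative of Ndufa4 known from hypoxic cells, gave at most 0.508% of its pair in the muscle classes.

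The makeup of the mitochondrial UMIs differed by library in every class. mt-Co3 gave 29.5% of them in the contractile-low QSC class (29.0 to 29.9) and 18.6% in the ASC class (18.4 to 18.8), 38.1% and 23.1% in the contractile-high class, and 32.2% and 21.5% in the non-muscle class. mt-Nd2 went the other way, with 1.27% and 3.35% in the contractile-low class, 1.18% and 3.91% in the contractile-high class, and 1.44% and 1.97% in the non-muscle class. So did mt-Nd1 (9.05% and 13.02%, 10.1% and 14.7%, 8.45% and 11.2%) and mt-Atp6 (17.4% and 24.3%, 16.7% and 20.7%, 16.1% and 22.4%). Since all 3 classes of a library shared its preparation and sequencing, these shifts cannot be told apart from the library.

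**Figure D4:**
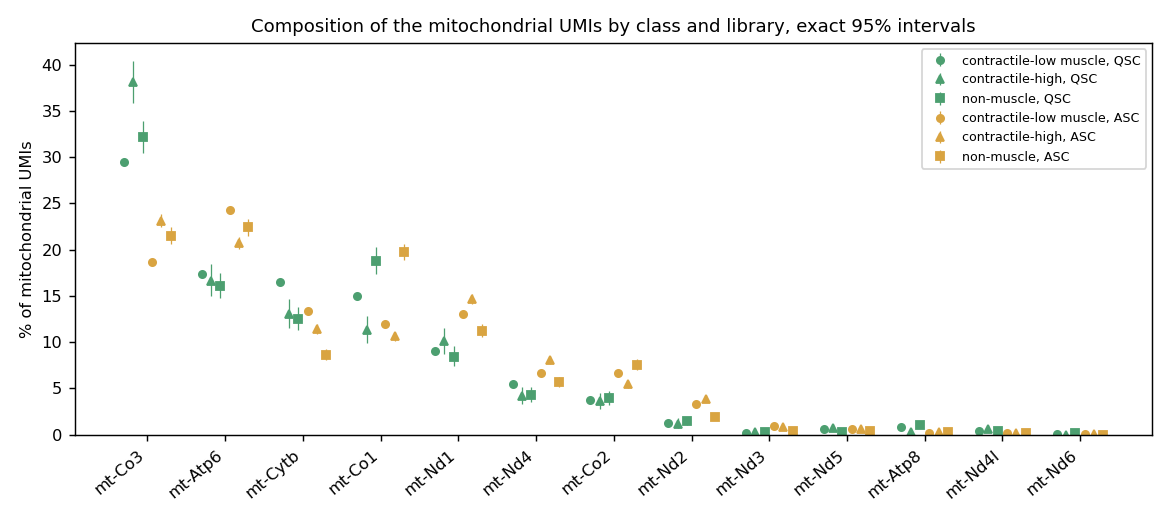
Percent of the mitochondrial UMIs given by each of the 13 genes in each class (circles contractile-low, triangles contractile-high, squares non-muscle) of the QSC library (green) and the ASC library (ochre), with exact 95% intervals. For mt-Co3 every green symbol lies above every ochre one (29.5% to 38.1% against 18.6% to 23.1%), and for mt-Nd2 every green symbol lies below (1.18% to 1.44% against 1.97% to 3.91%).

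Within the contractile-high ASC barcodes the nuclear members varied with the cluster. Cluster 6, led by Tnni1 and Tnnc1, troponin genes of slow fibres, held 11.5% nuclear UMIs (11.4 to 11.6) and 0.434% mitochondrial UMIs. Tnni1 was detected in a share of only 0.147 of the barcodes of cluster 6 and Tnnc1 in 0.205, so the cluster is not read as slow fibres. Cluster 1, led by Ampd1 and with the fast myosin gene Myh4 among its 10 leading genes, held 8.37% (8.32 to 8.42) and 0.270%. Clusters 2 and 4 held 7.25% and 7.28% nuclear UMIs. The 107 genes were not used for clustering. Cluster 6 over cluster 1, 85 of 89 tested nuclear members were higher, 68 with an interval above 0, but 0 were at least 2-fold higher, beside 3.03% of 4756 tested genes, and 0 were at least 2-fold lower, beside 8.03%. Their median log2 ratio was 0.39 beside -0.11 for all genes tested. All 10 tested mitochondrial genes were higher as well (median 0.75), so here both genomes stood on the same side. Uqcrq (log2 0.78, 0.68 to 0.87), Cox7a1 (0.83, 0.72 to 0.94) and Atp5g1 (0.66, 0.59 to 0.74) were among the higher nuclear genes, and Sdhb stood at 0.64. The median depth of these clusters was 2786 and 3022 UMIs.

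Within the contractile-low ASC barcodes, cluster 9, which was led by Cdkn1c and Myog, held 2.92% mitochondrial (2.88 to 2.97) and 4.77% nuclear UMIs (4.72 to 4.82). The activated-like cluster 5 held 1.87% and 3.99%, and cluster 3 held 2.54% and 3.42%. Cluster 9 over cluster 5, 69 of 90 tested nuclear members were higher, 43 with an interval above 0, and 1 was at least 2-fold higher, beside 13% of 8237 tested genes, and 1 at least 2-fold lower, beside 17.7%. The median log2 ratio was 0.18 for nuclear members and 0.50 for mitochondrial genes. mt-Cytb (log2 0.99) and mt-Nd4 (log2 0.96) were the highest of the mitochondrial genes. Of the nuclear members, Cox6b2 was the highest (1.59, 0.41 to 2.70) and Ndufaf2 the lowest (-1.56, -2.28 to -0.92). The nuclear-retained list was 3.10-fold higher in cluster 9, and the median depth was 11791 UMIs against 22062.

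Other genes of mitochondria were set beside the subunits, and their interval counts too are given without the share over all tested genes. In the contractile-low class, Cycs, the electron carrier cytochrome c, went from 317 CPM in the QSC library to 801 CPM in the ASC library (log2 1.34, 1.16 to 1.52), and Cyc1, its partner in complex III, from 254 to 404 CPM (log2 0.67). In the contractile-high class both were lower in the ASC library (log2 -0.83 and -0.68). Of 14 genes for the maintenance and transcription of mitochondrial DNA, 3 had an interval above 0 and 2 below in the contractile-low class, with Tfam, a packaging and transcription factor of mitochondrial DNA, at 39.2 and 39.5 CPM (log2 0.01, -0.52 to 0.58) and Polrmt, the mitochondrial RNA polymerase, at 8.07 and 9.88 CPM. Of 10 tested genes of mitochondrial mRNA stability and processing, 5 had an interval above 0 and 0 below, Slirp, an RNA-binding protein, among them (91.1 to 186 CPM, log2 1.03, 0.70 to 1.38), while Lrpprc, its binding partner, stood at 0.75 (-0.19 to 1.85). Of 14 genes of the tricarboxylic acid cycle, 5 had an interval above 0 and 3 below, and Cs, citrate synthase, stood at 0.81 (0.43 to 1.22). Of 31 assembly factors outside the rule, 12 had an interval above 0 and 2 below. Of 7 tested regulators of mitochondrial biogenesis, 1 had an interval above 0 and 1 below, and Ppargc1a, a coactivator of oxidative genes, had only 6 and 5 UMIs. It had 0 UMIs in contractile-high QSC barcodes and 36 in ASC barcodes, and Nrf1 had 26 UMIs in the contractile-low QSC class and 120 in the ASC class (log2 -0.40, -1.02 to 0.28).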

How the data were processed

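The authors made the deposited counts, whole numbers of UMIs per gene and barcode in 3' droplet libraries, with Cell Ranger, release 6.0.2 per the file headers and 7.1.0 in the submitters' processing notes, which name the build mm10. The annotation and the handling of strand are not given in the sources used here. The study's own filter kept barcodes with at least 500 genes and at most 1% mitochondrial UMIs. That limit was not applied here, because only 1 of the 382 contractile-low QSC barcodes was below it. No doublets were removed. Total depth was 1346020 UMIs in the QSC library against 9059807 in the ASC library.

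For the clustering, which left out the 107 genes, Seurat 5.3.0 was run under R 4.3.3 (variable genes, 10 principal components, resolution 0.6), and a cluster was named only where 1 type had the most markers among its 10 leading genes and at least 3 of its markers were detected in 10% of cells. UMIs were summed per class and library in Python 3.11.15. Shares carry exact Clopper-Pearson intervals, and ratios of CPM carry exact conditional binomial intervals. Genes with at least 20 UMIs over both sums count as tested, which here means compared, and no p-value was computed. The method was tested on simulated data. Named genes were all mitochondrial genes, the isoform groups, the complex II subunits, the leading subunit of the other complexes by UMIs, and the 5 highest and 5 lowest nuclear ratios with at least 50 UMIs in 2 comparisons. The comparisons of clusters, and the genes named in them, were chosen after their values were seen. The members and lists were chosen with earlier results of these data known.

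The 107 genes all had a GENCODE M21 entry. Of the 94 nuclear members, 30 overlap another counted gene, 1 of them on the same strand (Ndufa13 with Yjefn3). The alternatives tried were other gene and mitochondrial limits, contractile limits, means over barcodes, other denominators, scaling with edgeR 4.0.16 (TMM) or to the median gene, and restrictions by cluster.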

Additional observations from a re-analysis of the deposited data

Results flagged for a closer look

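Nuclear members stood on opposite sides in the 2 muscle classes when ASC was set over QSC, and the difference between the classes was not tested. Their sum had a log2 ratio of 0.39 in the contractile-low class and -0.70 in the contractile-high class. By complex the values were 0.24 and -0.69 for complex I, 0.40 and -0.75 for complex III, 0.46 and -0.68 for complex IV, and 0.49 and -0.72 for complex V.

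The single genes listed here are the named genes picked for intervals on opposite sides, so each shows the pattern by choice. Named genes without it are left out, such as Sdha, lower in both classes (-0.66 and -0.65), and Cox8a (0.45 and 0.07). Among complex I and II subunits the log2 ratios were 0.47 and -0.50 for Ndufa2, 0.23 and -0.92 for Ndufc1, 0.35 and -0.73 for Sdhb, and 0.44 and -1.03 for Sdhd. In complex III they were 0.89 and -0.74 for Uqcrq. In complex IV they were 1.41 and -0.56 for Cox5a, 0.36 and -0.66 for Cox6b1, 0.84 and -0.76 for Cox7c, 0.51 and -0.26 for Cox7a2, and 0.61 and -0.54 for Ndufa4, with the fibre forms Cox6a2 at 0.69 and -0.41 and Cox8b at 0.23 and -0.97. The contractile-low levels of these fibre forms in the ASC library, at 19.0 and 13.4 UMIs per 1000 contractile UMIs, were close to those in macrophage/monocyte-like barcodes and are not read as expression. In complex V they were 0.51 and -0.62 for Atp5e, 0.71 and -0.71 for Atp5g1, and 0.56 and -1.31 for Atp5g3.

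Barcodes with under 500 genes entered no comparison but held transcripts of both genomes. The 246 QSC barcodes held 4.81% mitochondrial and 11.9% nuclear UMIs, with 18.4% contractile UMIs. The 163 ASC barcodes held 13.2% mitochondrial and 6.14% nuclear UMIs, with 9.98% contractile UMIs, and their median mitochondrial share was 0.678%.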

How the results depend on the processing

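The 4 comparisons of summed shares and the counts of nuclear members past 2-fold had 169 alternative values, of which 71 moved little, 98 moved by more than the counting interval or 1.5 times, and 0 reversed. Another 6 were not run, because at most 1% mitochondrial UMIs left too few contractile-low QSC barcodes. No paired analysis was possible because each group has 1 library and the result comes from no test. The cause of the moves was not tested. Values below are log2 ratios. The restrictions to named clusters, the omission of barcodes near the contractile limit and the subtraction of the contractile-high profile were chosen after seeing the data. In the QSC library the subtraction removed more UMIs of the fibre forms than the contractile-low class held.

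For ASC over QSC in the contractile-low class, the mitochondrial share moved to -1.25 with at most 10% mitochondrial UMIs, -1.29 and -1.21 with a contractile limit of 2% and 10%, -0.74 as a mean over barcodes, -1.23 with mitochondrial and contractile UMIs out of the total, -1.39 in clusters 0 and 5, -1.24 without barcodes at 3% to 8%, and -1.15 after subtraction. The nuclear share moved to 0.35 with 1000 genes, 0.36 and 0.42 with the contractile limits, 0.33 as a mean over barcodes, 0.35 with the other total, 0.41 in clusters 0 and 5, and 0.75 after subtraction. The ratio of mitochondrial to nuclear UMIs moved to -1.52 with 1000 genes and -1.64 with at most 10% mitochondrial UMIs. It moved to -1.66 and -1.64 with the contractile limits of 2% and 10%, and to -1.06 as a mean over barcodes. In clusters 0 and 5 it was -1.81, without barcodes at 3% to 8% -1.62, and after subtraction -1.90. A change of the total cancels in this ratio.

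For ASC over QSC in the contractile-high class, the mitochondrial share moved to -1.15 with 1000 genes, -1.05 and -1.74 with at most 10% and 1% mitochondrial UMIs, -1.27 and -1.31 with the contractile limits, -0.81 as a mean over barcodes, -1.01 with the other total, -1.25 without barcodes near the limit, -1.30 within clusters 1, 2, 4, 6 and 7, and -1.59 in clusters 1 and 7. The nuclear share moved to -0.78 with 1000 genes, -0.63 with at most 1%, -0.30 and -0.66 with the contractile limits, -0.72 as a mean, -0.78 with the other total and -0.67 without barcodes near the limit. The ratio, in which the total cancels, moved to -0.37, -0.36, -1.11, -0.97, -0.65, -0.0866, -0.58, -0.61 and -0.91. These values follow the order of the mitochondrial settings without the other total.

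For contractile-high over contractile-low in the QSC library, the mitochondrial share moved to -2.63 with at most 10% mitochondrial UMIs, -0.75 with the 2% limit, -2.45 as a mean, -2.30 with the other total and -2.59 in clusters 1 and 7. The nuclear share moved to 2.20 with 1000 genes, 1.37 with the 2% limit and 2.39 with the other total. The ratio moved to -4.79, -2.12, -4.61 and -4.76, in the order of the mitochondrial settings without the other total. In the ASC library the mitochondrial share moved to -2.46 with 1000 genes, -2.43 and -1.68 with at most 10% and 1%, -0.73 and -2.62 with the contractile limits, -2.22 with non-muscle barcodes kept, -2.52 as a mean, -2.08 with the other total, -2.05 against clusters 0 and 5, -2.55 without barcodes near the limit, -2.70 within the 5 contractile clusters and -3.001 in clusters 1 and 7. The nuclear share moved to 1.11 with at most 1%, 0.71 with the 2% limit, 1.09 with non-muscle barcodes kept, 1.11 as a mean, 1.26 with the other total, 1.08 for subunits alone, 1.06 against clusters 0 and 5, 1.10 without barcodes near the limit, and 1.09 with either restriction of the contractile clusters. The ratio moved to -3.52, -3.50, -2.79, -1.44, -3.69, -3.31, -3.64, -3.11, -3.65, -3.79 and -4.09. The order is again that of the mitochondrial settings without the other total.

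Nuclear members past 2-fold went from 10 to 18 under TMM and 17 relative to the median gene for ASC over QSC in the contractile-high class, and from 51 to 77 and 83 for contractile-high over contractile-low in the ASC library. Depth limits the contractile-high QSC class, with 216013 UMIs, where mt-Nd6 and Cox6b2 were at 0.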

Other observations

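Between the contractile-high and contractile-low classes of the ASC library, other mitochondrial genes stood on different sides. Of 31 assembly factors outside the members, 18 had an interval above 0 and 4 below. Cycs was higher in the contractile-high class (1631 against 801 CPM, log2 1.03, 0.97 to 1.08), and of 14 genes of the tricarboxylic acid cycle 8 had an interval above 0 and 4 below, citrate synthase (Cs) among the latter (87.0 against 123 CPM, log2 -0.51). Of 10 genes of mitochondrial mRNA stability and processing, 0 had an interval above 0 and 6 below, Lrpprc among them (9.02 against 19.4 CPM, log2 -1.10, -1.76 to -0.49). Slirp stood at 189 and 186 CPM (log2 0.02), and Tfam at 48.0 and 39.5 CPM (log2 0.28, -0.03 to 0.59). TMM scaling adds 0.56 to each of these log2 ratios, which would turn that of Cs.

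Cluster 6 over cluster 1, the nuclear sums were higher by 0.33 in complex I, 0.50 in complex II, 0.53 in complex III, 0.51 in complex IV and 0.50 in complex V, while assembly factors and the other non-subunits stood at 0.12 with an interval that held 0 (-0.03 to 0.27). The 12 contractile-high barcodes of cluster 5, with 6.34% contractile UMIs, held 4.45% mitochondrial and 5.37% nuclear UMIs.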
